A study of Homo sapiens with 12 samples.

Results

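The 10 genes described here encode interleukin cytokines and receptors of the IL-1 and IL-6 families, together with the IL-7 receptor chain, out of 57992 genes in the count table. They were chosen by name and matched to the table by Ensembl identifier, and all 10 were found. The cytokines are IL1A, IL1B and IL18 of the IL-1 family and IL6, IL11 and LIF of the IL-6 family, and the receptors are IL1R1, IL6R, IL6ST and IL7R. Messenger RNA was sequenced, and reads counted per gene, in BT-549 and SUM149, 2 established human cell lines of triple-negative breast cancer. In each line, CshRNA cells served as controls and MUC1shRNA cells stably expressed a short hairpin RNA that targets MUC1-C, with 3 numbered sets of cells in each of the 4 groups. The titles give CshRNA, a control hairpin, for both lines, but the word vector appears in the BT-549 control descriptions, so whether those cells held a hairpin is not certain. BT-549 grew in RPMI1640 and SUM149 in Ham's F-12 with hydrocortisone, a glucocorticoid, and both media held serum and insulin, so line and medium cannot be told apart. The labels name 1 hairpin against MUC1-C and do not say whether the cells were clones or whether the 3 sets came from separate transfections. The p-values thus measure only the spread between these samples, which may be technical.

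IL-1 alpha and IL-1 beta signal through the receptor IL1R1 and its accessory chain IL1RAP, while the antagonist IL1RN occupies the receptor without signalling and the decoy receptor IL1R2 binds ligand without passing a signal on. IL-18 is a related cytokine with a receptor pair of its own, and both IL-1 beta and IL-18 are made as precursors that caspase-1 cuts. IL-6, IL-11 and LIF bind the receptor chains IL6R, IL11RA and LIFR, in that order, and share the signalling chain gp130. It is encoded by IL6ST and activates JAK kinases and STAT3. IL7R is the chain that binds IL-7 together with the common gamma chain IL2RG, and TSLP together with CRLF2, and is best known from lymphocytes. In breast tumours, cytokines of these families can be made by the cancer cells themselves as well as by stromal and immune cells.

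The target gene checked the labels. MUC1, a transmembrane mucin, had 51.9 to 54.3 CPM in the BT-549 CshRNA libraries and 3.60 to 6.01 CPM in the MUC1shRNA libraries, and 12.1 to 16.6 against 0.334 to 1.06 CPM in SUM149 (log2 fold changes -3.53 and -4.59, adjusted p = 4.2e-07 and 1.8e-08 by edgeR). CPM are counts per 1000000 of a library's total, scaled by TMM over all 12 libraries. Depth ran from 16332364 to 21248768 counts in BT-549, from 19392422 to 24140623 in SUM149 CshRNA and from 7931614 to 9623924 in SUM149 MUC1shRNA, so that the SUM149 control arm was 2.44 times as deep. A count of 3, the limit that a count of 0 allows, was worth 0.115 to 0.354 CPM across libraries, for counting error only. By the chi-square per degree of freedom of their counts, BT-549 CshRNA 3 (14.5 and 13.7 against 4.43 between the other two), BT-549 MUC1shRNA 2 (8.53 and 8.33 against 1.85) and SUM149 CshRNA 3 (13.5 and 10.6 against 3.80) lay farthest from their replicates, and in SUM149 MUC1shRNA the pairs ran from 2.33 to 5.51. The 6 mesenchymal markers summed to 4631 to 6699 CPM in BT-549 libraries, and the 6 basal epithelial markers to 1064 to 1207 CPM in SUM149 libraries. Within that basal sum, 2 markers were called higher and 2 lower with MUC1shRNA. The mean of KRT5 went from 273 to 136 CPM and that of KRT17 from 25.1 to 36.8 CPM. In SUM149 the mesenchymal sum went from 839 to 944 CPM with CshRNA to 3045 to 3426 CPM with MUC1shRNA, of which FN1 held a mean of 766 and 3100 CPM. The means of VIM (31.4 and 32.2 CPM) and CDH2 (50.9 and 52.6) were level. Those of TWIST1 (27.5 and 19.3) and SPARC (0.810 and 0.0714) were lower with MUC1shRNA, and ZEB1 went from 0.116 to 0.722 CPM. The rise of the sum was thus that of FN1, and its part in the results for SUM149 was not tested. The 12 leukocyte markers summed to at most 6.74 CPM in any library, and CD3E, CD3D, CD2 and MS4A1 had 0 counts in all 12. The 6 endothelial markers summed to 27.1 to 30.7 CPM in SUM149 CshRNA and 9.72 to 11.4 CPM in SUM149 MUC1shRNA. Most of that was PECAM1, with means of 28.4 and 9.71 CPM. In bulk RNA, fewer cells of a type and less RNA per cell cannot be told apart.

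**Figure D1:**
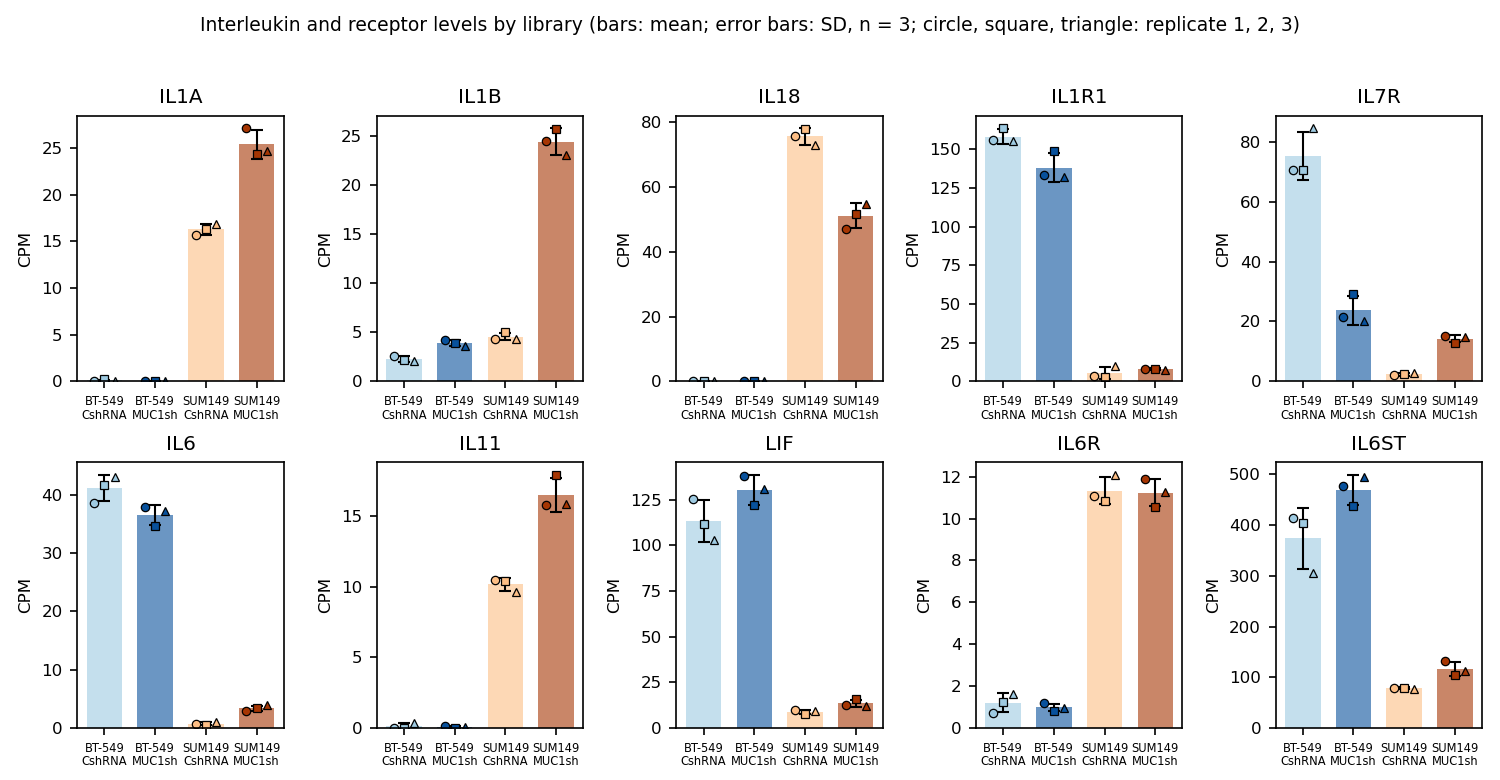
Level in CPM (vertical axis) of each of the 10 genes in the 4 groups (horizontal axis), where bars are means of 3 libraries, error bars are SD and the symbols are replicates 1, 2 and 3. IL1A, IL11 and IL18 were near 0 in BT-549, IL7R fell with MUC1shRNA in BT-549 and rose in SUM149, and 1 SUM149 CshRNA library stood apart for IL1R1.

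The first comparison asked how these genes differed when MUC1 was silenced. In SUM149, 7 of the 10 genes rose and 1 fell. IL7R, IL1B and IL6 rose by 6.02-fold, 5.40-fold and 4.69-fold, and IL1A, IL11, LIF and IL6ST by 1.49-fold to 1.64-fold, while IL18 fell. In BT-549 only 7 of the 10 had enough counts to be tested, of which IL1B and IL6ST rose and IL7R and IL1R1 fell. A gene counted as changed at an adjusted p below 0.05 in edgeR's quasi-likelihood test over all genes. In SUM149, 56.5% of all tested genes changed (27.6% higher, 28.9% lower), and in BT-549 33.3% changed (16.8% higher, 16.5% lower). The median log2 fold change of the 10 genes in SUM149 was 0.64, against -0.03 over all tested genes. That of the 7 tested genes in BT-549 was -0.17, against -0.005. No library of one arm reached the other arm for 8 of the 10 genes in SUM149, where this held for 62.5% of all tested genes, and for 5 of the 7 in BT-549, where it held for 47%. These counts over 10 named genes were not tested as a set.

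**Figure D2:**
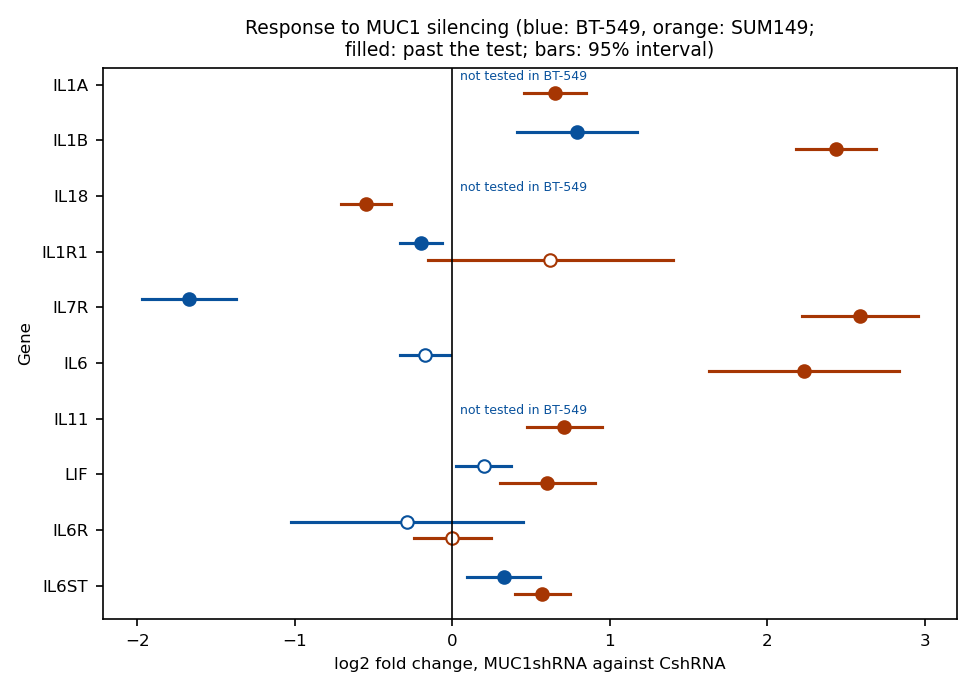
Log2 fold change of MUC1shRNA against CshRNA (horizontal axis) for each gene (vertical axis) in BT-549 (blue) and SUM149 (orange), with 95% intervals and filled points for genes past the test. The 2 points of IL7R lie on opposite sides of 0, at -1.67 for BT-549 and 2.59 for SUM149, and IL1A, IL11 and IL18 were not tested in BT-549.

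IL1B, the gene of IL-1 beta (ENSG00000125538.11, GRCh38 chromosome 2, 112829751 to 112836903, minus strand), rose in both lines. In SUM149 its CshRNA libraries had 4.33, 5.01 and 4.33 CPM and its MUC1shRNA libraries 24.5, 25.7 and 23.0 CPM. The log2 fold change was 2.43 (SE 0.12, adjusted p = 3.2e-09), and 0.564% of tested genes rose at least as far. In BT-549 the CshRNA libraries had 2.57, 2.12 and 2.04 CPM and the MUC1shRNA libraries 4.22, 3.89 and 3.54 CPM, a log2 fold change of 0.79 (SE 0.17, adjusted p = 0.0064). The arms were apart in each line, and the highest BT-549 library lay just below the lowest SUM149 library. IL1B and IL6ST were the members called higher in both lines, as were 5.97% of the genes tested in both.

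IL1A, which encodes IL-1 alpha (ENSG00000115008.5, chromosome 2, 112773915 to 112784590, minus strand), lies beside IL1B and had more than 4 counts in no BT-549 group. In SUM149 its CshRNA libraries had 15.7, 16.3 and 16.9 CPM and its MUC1shRNA libraries 27.1, 24.4 and 24.7 CPM, so all silenced libraries were higher. The log2 fold change in SUM149 was 0.65 (SE 0.09, adjusted p = 4.6e-05). In BT-549, IL1A had 4 counts over the 3 CshRNA libraries and 1 count over the 3 MUC1shRNA libraries, too few to test. The ratio of SUM149 CshRNA to BT-549 CshRNA was 212, with an exact 95% interval of 82.5 to 779 for counting error only. Since 3 of those 4 control counts were in CshRNA 2, it was 602 (108 to 23810) without that library, and 139 (54.2 to 512) without CshRNA 1.

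IL18, the gene of the IL-1 family cytokine IL-18 (ENSG00000150782.11, chromosome 11, 112143251 to 112164117, minus strand), was the member that fell in SUM149. The CshRNA libraries had 75.9, 78.0 and 73.0 CPM and the MUC1shRNA libraries 47.0, 51.7 and 54.8 CPM, with no overlap. The log2 fold change was -0.55 (SE 0.07, adjusted p = 3.3e-05). BT-549 had 4 counts of IL18 over the 3 CshRNA libraries and 0 in every MUC1shRNA library, where 3 counts would be 0.154 to 0.201 CPM. The ratio of SUM149 to BT-549 control cells was 985 (exact 95% interval 385 to 3618, counting error only), and 2492 (447 to 98440) without BT-549 CshRNA 3, which held 3 of the 4 counts. Without BT-549 CshRNA 2 it was 700 (273 to 2571). The receptor chain IL18RAP had 0 counts in all 12 libraries, and its partner IL18R1 had at most 14 counts in any library. CASP1, which encodes the caspase that matures IL-1 beta and IL-18 and was singled out after its values were seen, moved in opposite directions. It rose in BT-549 from 0.880 ± 0.367 to 2.15 ± 0.440 CPM (SD, n = 3 each; log2 fold change 1.304, adjusted p = 0.012), and fell in SUM149 from 1.52 ± 0.703 to 0.215 ± 0.110 CPM (-2.75, adjusted p = 5.1e-04), where the silenced libraries held 6 counts in all. Without BT-549 MUC1shRNA 1 the BT-549 rise had an adjusted p of 0.055.

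IL1R1, the signalling receptor of IL-1 (ENSG00000115594.11, chromosome 2, 102064544 to 102179874, plus strand), was abundant in BT-549 and low in SUM149. The BT-549 CshRNA libraries had 156, 164 and 155 CPM and the MUC1shRNA libraries 133, 149 and 132 CPM, a small fall without overlap (log2 fold change -0.20, SE 0.06, adjusted p = 0.031). Leaving out MUC1shRNA 1 (adjusted p = 0.135), MUC1shRNA 3 (0.131), CshRNA 1 (0.065) or CshRNA 2 (0.083) ended that call, as did a joint fit of all 12 libraries (0.52). In SUM149 the CshRNA libraries had 3.10, 2.88 and 9.66 CPM and the MUC1shRNA libraries 8.25, 8.01 and 7.51 CPM. CshRNA 3 thus lay above the silenced libraries and the other controls well below them. The log2 fold change was 0.62 (SE 0.36, adjusted p = 0.16) with all libraries, and 1.40 (adjusted p = 6.7e-08) without SUM149 CshRNA 3. It also passed with no filter (0.58, adjusted p = 0.0078), with limma-voom (0.87, adjusted p = 0.049) and with a replicate block (0.77, adjusted p = 0.032).

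The partners of IL1R1 were distributed differently from it. IL1RAP, the accessory chain, had 97.8 ± 16.0 CPM in BT-549 CshRNA and 101 ± 7.01 CPM in SUM149 CshRNA (SD, n = 3 each), a difference within the spread of the libraries (log2 -0.04, 95% interval -0.29 to 0.20, adjusted p = 0.74). With MUC1shRNA, IL1RAP was called lower in SUM149 (-0.21, SE 0.08, adjusted p = 0.044), though the arms overlapped and the call held in 8 of 15 alternatives. In BT-549 it was not past the test (-0.34, adjusted p = 0.059) but passed in 6 of 16. IL1RN, the receptor antagonist, had 1 count over the 3 libraries of each BT-549 group, and rose in SUM149 from 15.4 ± 0.188 to 21.5 ± 2.05 CPM (SD, n = 3 each; log2 fold change 0.49, adjusted p = 9.5e-04). The decoy IL1R2 rose in SUM149 from 9 to 20 counts over 3 libraries, in the shallower libraries (2.41, SE 0.51, adjusted p = 0.0012), and had too few counts for the test in the fits that left out a SUM149 CshRNA library. On the scale of CPM per kilobase of exon, which allows levels of different genes to be compared, SUM149 CshRNA had 7.67 of IL1A, 1.47 of IL1B and 4.73 of IL1RN against 0.736 of IL1R1, or 0.422 of IL1R1 without SUM149 CshRNA 3. BT-549 CshRNA had the reverse order, with 22.4 of IL1R1 against 0.725 of IL1B.

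IL6, the gene of interleukin-6 (ENSG00000136244.11, chromosome 7, 22725884 to 22732002, plus strand), rose in SUM149 from a low level. Its CshRNA libraries had 0.651, 0.520 and 1.00 CPM, from 11 to 22 counts each, and its MUC1shRNA libraries 2.95, 3.34 and 3.85 CPM, from 25 to 40 counts each. All silenced libraries were above all controls, with a log2 fold change of 2.23 (SE 0.28, adjusted p = 1.8e-05). In BT-549 the level was far higher, with 38.6, 41.7 and 43.0 CPM in the CshRNA libraries and 37.9, 34.7 and 37.2 CPM in the MUC1shRNA libraries. There the arms did not overlap, but the difference was small and not past the test (-0.17, 95% interval -0.33 to -0.01, adjusted p = 0.090). IL6 shares 20.7% of its exon bases with the antisense gene AC073072.1, and since the strand setting of the counting is not given, reads of the 2 genes cannot be told apart.

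LIF, the gene of leukemia inhibitory factor (ENSG00000128342.4, chromosome 22, 30240447 to 30246851, minus strand), was the more abundant of these cytokines in BT-549. The BT-549 CshRNA libraries had 126, 112 and 103 CPM and the MUC1shRNA libraries 138, 122 and 131 CPM. These arms overlapped, and the difference was not past the test (0.20, SE 0.08, adjusted p = 0.077), although it passed in 4 alternatives: without CshRNA 1 (0.28, adjusted p = 0.031), without MUC1shRNA 2 (0.25, adjusted p = 0.040), without CshRNA 3 and MUC1shRNA 2 together (0.18, adjusted p = 0.021) and with no filter (0.20, adjusted p = 0.026). In SUM149 the CshRNA libraries had 9.76, 7.79 and 9.02 CPM and the MUC1shRNA libraries 12.7, 15.6 and 11.8 CPM, a rise without overlap (0.60, SE 0.14, adjusted p = 0.0024).

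IL11, the gene of interleukin-11 (ENSG00000095752.6, chromosome 19, 55364389 to 55370463, minus strand), was a SUM149 gene like IL1A. The CshRNA libraries had 10.4, 10.4 and 9.66 CPM and the MUC1shRNA libraries 15.8, 17.9 and 15.9 CPM. All silenced libraries were higher (0.71, SE 0.11, adjusted p = 1.0e-04). In BT-549, 7 counts of IL11 were found with CshRNA, all of them in CshRNA 3, and 3 with MUC1shRNA. The ratio of SUM149 to BT-549 control cells was 75.8 (exact 95% interval 36.6 to 189, counting error only). Without CshRNA 3, IL11 was at least 112-fold higher in SUM149, against 3 counts over the 2 remaining libraries, and without CshRNA 1 the ratio was 49.8 (24.06 to 124).

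IL6ST, which encodes the shared signal transducer gp130 (ENSG00000134352.19, chromosome 5, 55935095 to 55994993, minus strand), rose in both lines. In SUM149 the CshRNA libraries had 79.7, 78.8 and 77.6 CPM and the MUC1shRNA libraries 132, 105 and 112 CPM (0.57, SE 0.08, adjusted p = 4.6e-05). In BT-549 the CshRNA libraries had 414, 404 and 305 CPM and the MUC1shRNA libraries 477, 437 and 495 CPM (0.32, SE 0.10, adjusted p = 0.037). The arms were apart in each line. The BT-549 call ended without MUC1shRNA 1 (adjusted p = 0.104) or MUC1shRNA 3 (adjusted p = 0.120). IL6ST shares 8.58% of its exon bases with the antisense gene AC008914.1.

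IL6R, the receptor chain specific to IL-6 (ENSG00000160712.12, chromosome 1, 154405193 to 154469450, plus strand), was not past the test in either line. In SUM149 the CshRNA libraries had 11.1, 10.9 and 12.1 CPM and the MUC1shRNA libraries 11.9, 10.6 and 11.3 CPM. The arms lay over each other, with a log2 fold change of 0.001 (95% interval -0.25 to 0.25, adjusted p = 0.99). In BT-549 the CshRNA libraries had 0.728, 1.26 and 1.62 CPM and the MUC1shRNA libraries 1.18, 0.825 and 0.936 CPM (-0.29, 95% interval -1.02 to 0.45, adjusted p = 0.53), from 13 to 31 counts each.

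IL11RA and LIFR, the chains that bind IL-11 and LIF beside gp130, fell in SUM149, and LIFR fell in BT-549 too. IL11RA went down in SUM149 from 1.35 ± 0.290 to 0.402 ± 0.0987 CPM (SD, n = 3 each; -1.75, SE 0.37, adjusted p = 0.0012), and was at 13.5 ± 0.194 and 13.8 ± 2.72 CPM in BT-549 (0.03, adjusted p = 0.89). LIFR fell in BT-549 from 31.4 ± 2.62 to 22.7 ± 0.891 CPM (-0.47, SE 0.08, adjusted p = 0.0021) and in SUM149 from 9.89 ± 1.42 to 5.47 ± 1.43 CPM (-0.85, SE 0.18, adjusted p = 0.0014; SD, n = 3 each). SOCS3, a feedback inhibitor induced by gp130 signalling and singled out after its values were seen, rose in SUM149 from 3.11 ± 0.684 to 8.38 ± 0.401 CPM (SD, n = 3 each; 1.44, SE 0.19, adjusted p = 3.3e-05). In BT-549 its log2 fold change was -0.42 (adjusted p = 0.074), and it passed in 5 alternatives. These were no filter (adjusted p = 7.4e-04), DESeq2 (adjusted p = 0.037), and the fits without MUC1shRNA 2 (-0.59, adjusted p = 0.013), without CshRNA 2 (-0.55, adjusted p = 0.030) and without CshRNA 3 and MUC1shRNA 2 together (-0.44, adjusted p = 0.0045). SOCS3 was 1 gene of a list of IL-6 family signalling on which 8 genes rose and 7 fell of 22 tested in SUM149. CEBPD (-1.29) and CEBPB (-0.54) of that list fell there, so the rise of SOCS3 does not stand for the list. Per kilobase of exon, BT-549 CshRNA had 19.9 CPM of IL6 with 0.186 of IL6R, while SUM149 CshRNA had 0.350 of IL6 with 1.76 of IL6R. For IL11 and IL11RA the order was the other way round, at 0.0456 and 3.17 in BT-549 CshRNA and 3.81 and 0.316 in SUM149 CshRNA.

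**Figure D3:**
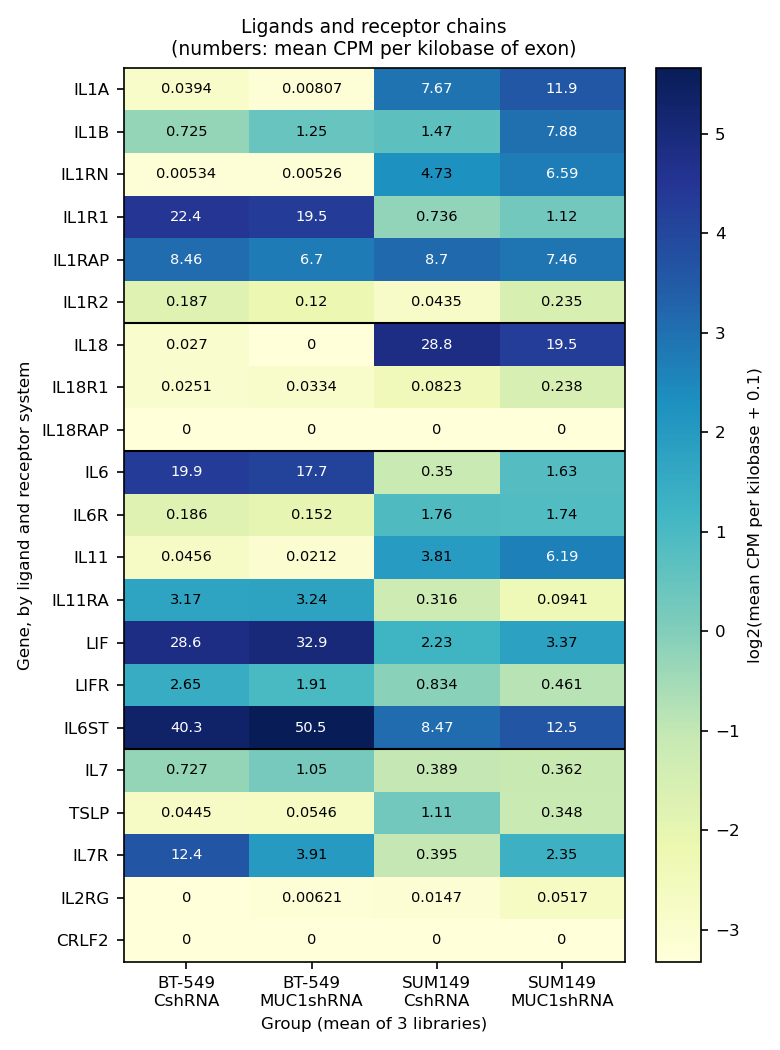
Mean level in CPM per kilobase of exon (numbers; colour is log2 of the level plus 0.1) of ligands and receptor chains (vertical axis) in the 4 groups (horizontal axis), with lines between the IL-1, IL-18, IL-6 and IL-7 systems. IL6 stood at 19.9 with IL6R at 0.186 in BT-549 CshRNA, and IL7R at 12.4 with IL2RG and CRLF2 at 0.

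IL7R, the ligand-binding chain of the IL-7 receptor (ENSG00000168685.14, chromosome 5, 35852695 to 35879603, plus strand), changed in opposite directions. The BT-549 CshRNA libraries had 70.7, 70.7 and 84.6 CPM and the MUC1shRNA libraries 21.5, 29.3 and 20.2 CPM. That was a 3.19-fold fall (log2 fold change -1.67, SE 0.13, adjusted p = 2.2e-05), and 0.606% of tested genes fell at least as far. The SUM149 CshRNA libraries had 1.99, 2.27 and 2.92 CPM and the MUC1shRNA libraries 15.2, 12.8 and 14.7 CPM. There IL7R rose 6.02-fold (2.59, SE 0.17, adjusted p = 4.8e-08), and 0.480% of tested genes rose at least as far. No arms overlapped in either line, and the silenced groups lay nearer to each other than the controls did. IL7R was the 1 member called in opposite directions, which held for 9.93% of the genes tested in both lines (5.14% lower in BT-549 and higher in SUM149).

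The known partners of IL7R were at or near 0 counts. IL2RG, the common gamma chain, had 8 counts over all 12 libraries, of which 0 were in BT-549 CshRNA, the group with the most IL7R. CRLF2, the chain that pairs with IL7R for TSLP, had 0 counts in all 12 libraries. The ligand IL7 was at 2.47 ± 0.467 CPM in BT-549 CshRNA and 1.32 ± 0.120 CPM in SUM149 CshRNA (SD, n = 3 each), and silencing moved it past the test in neither line (0.53, adjusted p = 0.096, and -0.10, adjusted p = 0.81). It passed in BT-549 without MUC1shRNA 2 (0.71, adjusted p = 0.028), without CshRNA 3 and MUC1shRNA 2 together (0.55, adjusted p = 0.049) and with no filter (0.54, adjusted p = 0.046). TSLP fell in SUM149 from 4.75 ± 0.397 to 1.49 ± 0.344 CPM (SD, n = 3 each; -1.66, SE 0.22, adjusted p = 3.3e-05). Of the leukocyte markers, PTPRC, which encodes CD45, fell beside IL7R in BT-549, from 56 to 14 counts over 3 libraries (-1.95, adjusted p = 0.0030). The summed level of the 12 markers was 1.79 to 2.29 CPM in BT-549 CshRNA and 1.18 to 1.95 CPM in BT-549 MUC1shRNA, and their part in the IL7R result was not tested. The lymphocyte markers CD3E, CD3D, CD2 and MS4A1 were at 0 there. In SUM149, where IL7R rose, PTPRC had 11 counts with CshRNA and 4 in the shallower MUC1shRNA libraries, means of 0.166 and 0.143 CPM.

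The difference between the responses of the lines was tested itself, as BT-549 minus SUM149 over all 12 libraries. It passed for IL7R (-4.25, SE 0.23, adjusted p = 5.2e-09), IL6 (-2.39, SE 0.23, adjusted p = 1.6e-06) and IL1B (-1.63, SE 0.20, adjusted p = 1.2e-05), 3 of 10 members, where 39.6% of all tested genes differed and 20.1% differed in the negative direction. For IL7R, 0.281% of tested genes had a difference at least as negative. All 3 were more positive in SUM149. The differences of LIF (-0.38, adjusted p = 0.066), IL1R1 (-0.81, adjusted p = 0.13), IL6ST (-0.23, adjusted p = 0.23) and IL6R (-0.27, adjusted p = 0.53) were not past the test. That of IL1R1 passed without SUM149 CshRNA 3 (-1.59, adjusted p = 2.3e-07), with no filter (-0.79, adjusted p = 3.5e-06) and with limma-voom (-1.06, adjusted p = 0.030). Those of LIF and IL6ST passed without BT-549 CshRNA 3 (-0.45, adjusted p = 0.038, and -0.36, adjusted p = 0.019), and that of LIF also without SUM149 CshRNA 1 (-0.46, adjusted p = 0.045), with no filter (-0.36, adjusted p = 0.044) and with DESeq2 (-0.41, adjusted p = 0.037). For IL1A (adjusted p = 0.13), IL11 (0.22) and IL18 (0.093) the BT-549 groups held at most 7 counts each, and the interval for IL1A ran from -4.67 to 0.10.

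The stretches upstream of IL6, IL1B, IL7R and IL11 are shown. The responses of the first 3 differed between the lines past the test, and IL11 rose in SUM149 too. Those of IL6ST, which rose as well, and of IL6R are not printed. RefSeq promoters on GRCh38.p14 were found with a single start for 6 members (IL1B, IL6, IL11, IL6R, IL6ST and IL7R), and the part of the 250 bases before the start that lies outside annotated exons is printed 5′ to 3′ on the gene's strand. Capitals mark matches, on either strand, to NF-kB (by its 10-base consensus), AP-1 (TGANTCA), STAT (TTCNNNGAA), C/EBP (TTGCNNAA), CRE (TGACGTCA) or the box TATAAA.
IL6, chr7:22726950-22727146, plus strand: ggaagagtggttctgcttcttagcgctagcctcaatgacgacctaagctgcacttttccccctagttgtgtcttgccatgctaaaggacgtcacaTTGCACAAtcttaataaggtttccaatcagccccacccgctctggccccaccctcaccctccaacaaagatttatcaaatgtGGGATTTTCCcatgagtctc
IL1B, chr2:112836904-112837029, minus strand: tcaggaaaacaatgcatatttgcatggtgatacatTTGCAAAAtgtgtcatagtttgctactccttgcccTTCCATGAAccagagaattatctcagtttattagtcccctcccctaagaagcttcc
IL7R, chr5:35856688-35856848, plus strand: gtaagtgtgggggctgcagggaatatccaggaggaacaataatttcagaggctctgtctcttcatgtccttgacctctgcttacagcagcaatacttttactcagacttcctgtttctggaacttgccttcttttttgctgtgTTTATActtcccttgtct
IL11, chr19:55370464-55370713, minus strand: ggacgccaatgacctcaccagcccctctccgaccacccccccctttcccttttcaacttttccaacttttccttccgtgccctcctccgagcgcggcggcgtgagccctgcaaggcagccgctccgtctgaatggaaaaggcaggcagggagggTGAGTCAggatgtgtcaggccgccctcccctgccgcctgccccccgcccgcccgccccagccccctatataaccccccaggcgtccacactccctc

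The IL6 window held an NF-kB match 73 to 64 bases and a C/EBP match 155 to 148 bases before the start. IL1B held a C/EBP match 215 to 208 bases and a STAT match 180 to 172 bases before its start, and IL11 an AP-1 match 96 to 90 bases before. In IL7R the matches were to the TATA box, 60 to 55 bases before the start and, in the part not printed, 29 to 24 bases before. Over the whole windows, NF-kB and C/EBP matches occurred in 2 of the 6 members each and AP-1, STAT and TATA matches in 1 each, with 0 for CRE. Among 35116 RefSeq promoters of that length, 9.96% held an NF-kB match, 9.05% C/EBP, 6.57% AP-1, 6.57% STAT, 10.7% TATA and 1.65% CRE. No match overlapped another in these windows.

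The control cells of the lines differed in all 10 genes, 5 higher and 5 lower in BT-549, in a comparison where 83% of tested genes differed (39.5% higher, 43.5% lower) and the groups did not overlap for 84% of them. IL1R1 (log2 difference, BT-549 minus SUM149, 4.94, SE 0.26, and 5.72 without SUM149 CshRNA 3), IL7R (4.98, SE 0.16), IL6 (5.82, SE 0.14), LIF (3.67, SE 0.11) and IL6ST (2.25, SE 0.11) were higher in BT-549 CshRNA. IL1A, IL11 and IL18, near 0 in BT-549, were higher in SUM149 CshRNA, as were IL6R (-3.23, SE 0.20, and -3.85 with thinned counts) and IL1B (-1.02, SE 0.14). The adjusted p of these 10 differences ran from 1.5e-14 for IL6 to 9.2e-06 for IL1B. After silencing, the order of the lines was the same for each of the 10 genes, with IL7R means of 23.7 CPM in BT-549 and 14.2 CPM in SUM149 and IL1B means of 3.88 and 24.4 CPM.

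Other genes of these pathways came from lists chosen by function, which were not tested as sets. Of the IL-1 family signalling list (35 genes), 19 were tested in BT-549, where 4 rose and 3 fell, and 23 in SUM149, where 10 rose and 8 fell. Of those tested, 36.8% changed in BT-549 and 78.3% in SUM149, against 33.3% and 56.5% of all tested genes. The medians were -0.02 and 0.01. In SUM149, MYD88, the adaptor of IL-1 receptors, rose (1.21, SE 0.09, adjusted p = 1.3e-07), as did IL1RL1, the IL-33 receptor, from 0.113 to 1.28 CPM (3.41, SE 0.43, adjusted p = 2.0e-05), while TAB2, an adaptor of the kinase TAK1, fell (-0.93, SE 0.08, adjusted p = 7.3e-07). In BT-549 the IL-1 receptor kinase IRAK2 (0.39) and the inhibitory adaptor TOLLIP (0.36) rose and the kinase IKBKB fell (-0.32), with adjusted p from 0.0018 to 0.0033.

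Of the IL-6 family signalling list (29 genes), 7 rose and 5 fell of 24 tested in BT-549, and 8 rose and 7 fell of 22 in SUM149. These were 50% in BT-549 and 68.2% in SUM149, against 33.3% and 56.5% of all tested genes. The medians were 0.02 and 0.21. In SUM149 the transcription factors CEBPD (-1.29, SE 0.11) and CEBPB (-0.54, SE 0.07) fell, and the oncostatin M receptor OSMR rose (0.67, SE 0.07). OSMR fell in BT-549 (-0.34, SE 0.07, adjusted p = 0.0045), a difference between lines past its own test (-0.99, adjusted p = 2.8e-06). BT-549 also had a fall of IL27RA, an IL-27 receptor chain (-1.05, SE 0.17, adjusted p = 0.0016), and a rise of the gp130 cytokine CTF1 (0.87, SE 0.17, adjusted p = 0.0044).

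Of the list of common gamma chain and IL-7 signalling (23 genes), 1 rose and 2 fell of 10 tested in BT-549, and 2 rose and 4 fell of 12 in SUM149. These were 30% in BT-549 and 50% in SUM149, near the 33.3% and 56.5% of all tested genes. The medians were -0.10 and -0.11. IL15, a cytokine of lymphocyte survival, fell in SUM149 from 9.97 ± 1.43 to 0.931 ± 0.330 CPM (SD, n = 3 each; -3.39, SE 0.24, adjusted p = 8.3e-08). IL4R, the IL-4 receptor chain, fell in BT-549 from 32.4 ± 0.420 to 12.1 ± 1.21 CPM (-1.43, SE 0.09, adjusted p = 5.3e-06) and rose in SUM149 from 25.8 ± 1.78 to 37.8 ± 1.203 CPM (0.56, SE 0.09, adjusted p = 9.2e-05; SD, n = 3 each), the same directions as IL7R. SOCS2, a STAT5-induced inhibitor, rose in BT-549 (1.78, SE 0.16, adjusted p = 4.8e-05), and STAT6, the transcription factor downstream of IL4R, fell there (-0.26, SE 0.06, adjusted p = 0.0084), a call that ended without MUC1shRNA 1 (adjusted p = 0.053).

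Of the other interleukins and receptors (35 genes), 3 rose and 3 fell of 10 tested in BT-549, and 4 rose and 6 fell of 17 in SUM149. These were 60% in BT-549 and 58.8% in SUM149, against 33.3% and 56.5% of all tested genes. The medians were 0.01 and -0.17. IL20RB, a receptor chain of IL-20 family cytokines, fell in SUM149 from 83.9 ± 3.30 to 15.7 ± 0.946 CPM (SD, n = 3 each; -2.41, SE 0.08, adjusted p = 1.3e-10). IL22RA2, the soluble IL-22 binding protein, fell there too (-2.28, SE 0.29, adjusted p = 2.1e-05), and the cytokine IL32 rose (0.82, SE 0.10, adjusted p = 1.5e-05). In BT-549, IL17RD rose (1.29, SE 0.24, adjusted p = 0.0033), and IL12A (-1.69, SE 0.39, adjusted p = 0.0085) and IL17D (-1.32, SE 0.33, adjusted p = 0.014) fell, all from levels near 1 CPM. The IL17D call ended without MUC1shRNA 1 (adjusted p = 0.055).

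**Figure D4:**
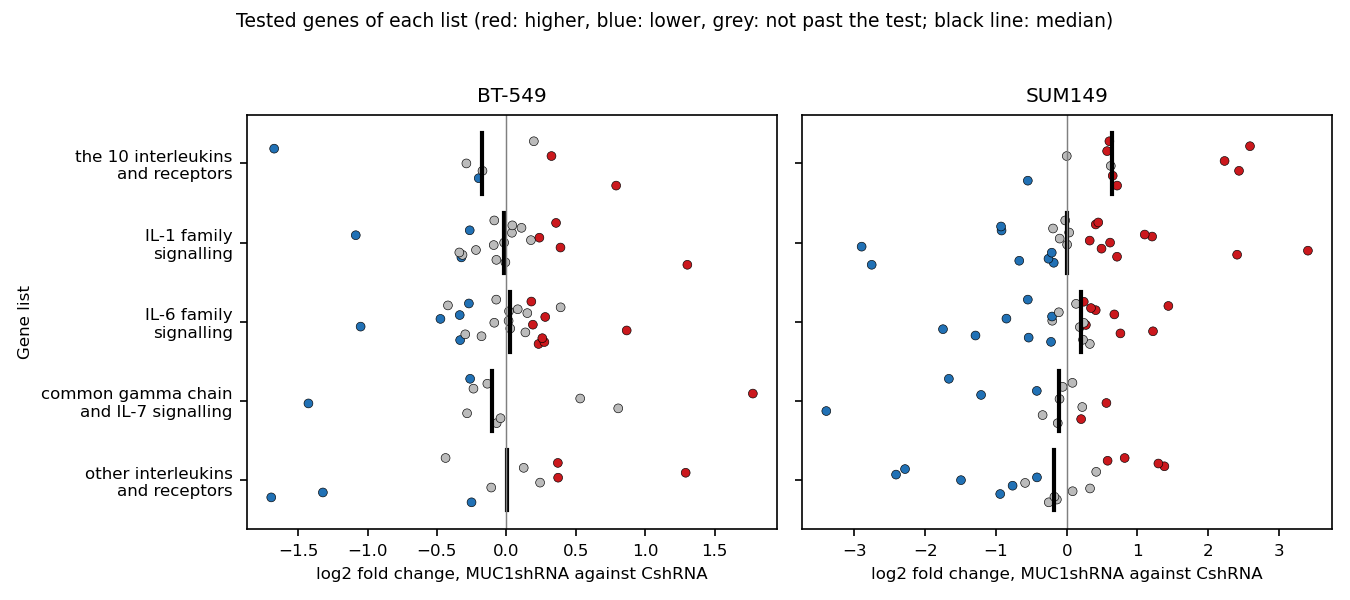
Log2 fold change after silencing (horizontal axis) for the tested genes of 5 lists (vertical axis). The left panel is BT-549, the right panel SUM149 with a wider axis; red marks genes that rose, blue those that fell, grey the others, and black lines the medians. The median of the 10 interleukins and receptors lies at -0.17 in BT-549 and 0.64 in SUM149, and the medians of the other lists lie between -0.17 and 0.21.

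The genes whose profiles were most like those of the members were found by the root mean square difference of log2(CPM + 1), centred on each gene's mean over the 12 libraries. For IL18 the nearest were TMEM30B (0.08) and TRIM29 (0.127), for IL1A GJB5 (0.122) and TBC1D30 (0.124), and for IL11 EPDR1 (0.15) and ACOXL (0.171). For IL6 they were PTPRJ (0.153) and PXDN (0.213), for LIF TLE4 (0.145) and SIRPB1 (0.157), for IL6ST SDCBP (0.106) and KIAA0895 (0.11), for IL6R FBXO27 (0.13) and KLHL29 (0.137), and for IL1R1 TGFBR3 (0.263) and MMP16 (0.302). IL1B had NEXN (0.281) and ABCA1 (0.316). IL7R had no gene as near, with VGLL3 at 0.503 and MFAP2 at 0.565. Apart from IL1B, most of each profile is the difference between the lines. The centred means of IL1B were -1.09 with CshRNA and -0.49 with MUC1shRNA in BT-549, and -0.31 and 1.89 in SUM149. Its SUM149 arms thus lay farther apart than the control cells of the lines. The measure is a description with no test.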

How the data were processed

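The 12 libraries were made with a TruSeq Stranded mRNA kit, per the labels' protocols. The authors deposited raw read counts, 1 column per library, against Ensembl gene identifiers. Tools and builds in the submitters' processing notes are STAR 2.7.0, CASAVA 1.8.2, DESeq2 1.24.0 and GRCh38.p7, listed with no role. Which tool counted the reads, with which strand setting and annotation, was not stated. Of 58037 identifiers, 45 pseudoautosomal Y copies were left out, and 57388 matched GENCODE release 29 on GRCh38, which gave names, positions and exon lengths.

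The 10 members, the lists and the tests were chosen with earlier results of these data known. The 6 libraries of a line were modelled with edgeR 4.0.16 under R 4.3.3 (TMM, filterByExpr defaults, quasi-likelihood test, Benjamini-Hochberg over all genes tested). The difference between responses and between control cells came from a fit of all 12 libraries. SE is the log2 fold change divided by the root of the F statistic. Ratios for genes near 0 used summed counts with exact binomial intervals. From each list and line, the called genes with the 3 lowest adjusted p were named if their higher arm averaged 1 CPM or more, while receptor partners, CASP1, SOCS3 and PTPRC were named after values were seen. The tests were checked on simulated counts, in which most genes had the same mean in all groups, unlike in these data. Of the 2-fold changes put in, 89.1% were found in BT-549 and 83.3% in SUM149. For the difference between responses 65.6% were found, and 74% between control cells, so a difference not past the test may have been missed. Promoter sequences are RefSeq's, on GRCh38.p14. Replicates differed by a chi-square per degree of freedom of 1.85 to 14.5 and were counted separately. Alternatives were other scalings (upper-quartile, RLE), no filter or one of 5 CPM in 3 libraries, limma-voom (limma 3.58.1), DESeq2 1.42.0, a joint fit, a replicate block, thinned counts and leaving out each library.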

Additional observations from a re-analysis of the deposited data

Results flagged for a closer look

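The difference between the responses of the lines, BT-549 minus SUM149 on the log2 scale, was tested for each named gene with enough counts. It passed edgeR's test for 23 of 43 genes, where 39.6% of all tested genes passed. Many of the 43 were named for a change in a line or after their values were seen, so the shares cannot be compared. Of the members, those that passed were IL1B (-1.63), IL6 (-2.39) and IL7R (-4.25), which are described above. Of the receptors and regulators beside them, the difference was -3.03 for IL1R2 (adjusted p = 4.9e-04), 4.07 for CASP1 (adjusted p = 2.2e-04), 1.8 for IL11RA (adjusted p = 0.0017) and -1.84 for SOCS3 (adjusted p = 6.5e-05). In the IL-1 list it was -1.01 for MYD88 and 1.05 for TAB2. In the IL-6 list it was -0.99 for OSMR, -1.22 for IL27RA, 0.81 for CEBPB and 1.13 for CEBPD. Among the common gamma chain genes it was 3.12 for IL15, -1.97 for IL4R, 1.95 for TSLP, -0.33 for STAT6 and 2.21 for SOCS2. TSLP had 10 and 12 counts over the BT-549 groups, and its difference did not pass with thinned counts (1.16) or without BT-549 MUC1shRNA 1 (1.85). Among the other interleukins and receptors it was -1.50 for IL12A, 1.90 for IL17RD, 2.55 for IL20RB, 4.12 for IL22RA2 and -1.24 for IL32. The value of IL22RA2 (SE 1.03) rests on few reads, with 2 counts over BT-549 CshRNA and 8 over BT-549 MUC1shRNA, too few to test in that line.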

How the results depend on the processing

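The SUM149 calls of IL1A, IL1B, IL6, IL11, LIF, IL18, IL6ST and IL7R kept their direction and passed in every alternative that could test them, and so did the calls of IL1B and IL7R in BT-549. The count of members called in BT-549 was 4 and went to 2 with a replicate block, and from 2 to 5 when 1 library was left out. Over all genes that count was 4398 in BT-549 and ran from 2716, without MUC1shRNA 1, to 4470 when 1 library was left out. The count of members whose responses differed was 3 and went to 5 with no filter, and from 3 to 5 when 1 library was left out. Same-numbered samples did not deviate together (r from -0.46 to 0.191 in BT-549 and from -0.029 to 0.102 in SUM149). In BT-549 the highest r, 0.538, was between CshRNA 3 and MUC1shRNA 2, the libraries farthest from their replicates. With 3 libraries per group, such values cannot tell whether the numbers pair the samples. With the replicate block, the BT-549 calls of IL1R1 (adjusted p = 0.057) and IL6ST (adjusted p = 0.074) ended and IL1R1 passed in SUM149 (0.77, adjusted p = 0.032). Reversed signs were all of values not past the test. IL6R in SUM149 was at -0.057 with upper-quartile scaling, -0.036 with no filter, -0.015 with the stricter filter and -0.012 in the joint fit, and from -0.036 to 0.064 when 1 library was left out. In BT-549 the leave-outs of IL6R ran from -0.557 to 0.023 and those of IL11RA from -0.139 to 0.111. Without CshRNA 3 and MUC1shRNA 2 together, a setting chosen after seeing the data, IL6R was at 0.141, IL11RA at -0.147, and 5325 genes were called in BT-549. IL7 in SUM149 ran from -0.424 to 0.211. The difference of responses of IL6R was 0.649 with thinned counts and from -0.554 to 0.031 in the leave-outs, where that of IL11 ran from -2.576 to 2.415 and that of IL1RN from -2.322 to 1.348. The line difference of IL1RAP was 0.022 with no filter and from -0.102 to 0.090 in the leave-outs. The cause was not tested. Upper-quartile scaling moved the median of all genes between the lines from -0.07 to -0.195, far less than the differences of the members. The stricter filter left IL1B and IL6R in BT-549 and IL6 in SUM149 untested. In SUM149 MUC1shRNA, the shallowest group, 1 count was worth up to 0.118 CPM, which limits IL6, CASP1 and IL11RA there.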
